A study of Mus musculus with 8 samples.

Results

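Cytosolic ribosomal protein genes were followed in splenic B cells of mice with and without Umps in their B cells. The genes were taken by symbol from the deposited table, as Rpl or Rps followed by a number and at most a short suffix (a, x, l, al or l1), with Rplp0, Rplp1, Rplp2 and Rpsa added. This gave 87 of 49315 features, 54 named for the large subunit and 33 for the small. No measured value entered this rule, but the set was chosen with earlier results of these data known. The annotation lists 83 of them as protein coding and 4 as pseudogenes (Rpl32l, Rpl6l, Rps4l and Rps12l1). The proteins encoded by Rps3a1, Fau and Rack1 also sit in the ribosome but carry other kinds of symbol, and are given apart.

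The series holds 8 RNA libraries of primary B cells from spleens of mice aged 4 months, 4 in each of 2 groups. The UMPS_BKO mice were FcγRIIB-/- and had lost Umps, the gene of the enzyme that completes de novo synthesis of uridine monophosphate, in B cells. The control mice were FcγRIIB-/- and CD23Cre+. Mice of both groups thus lacked the inhibitory Fc receptor FcγRIIB, a background known for a disease like lupus. The Cre recombinase is named for CD23, a surface protein of mature B cells, and the isolates were total B cells, so B cells with little CD23 could be among them. Nothing in the labels says that each library came from its own animal. The p-values therefore reflect the spread between 4 libraries a group, and that spread may be technical. The question put to the ribosomal protein genes was whether their transcripts, as a set and singly, differed between B cell isolates of UMPS_BKO and control mice. De novo synthesis of pyrimidines in these isolates was not measured here.

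The ribosome translates messenger RNA, and its proteins are assembled on ribosomal RNA in the nucleolus into a large subunit, which joins amino acids, and a small subunit, which reads the message. Each protein is present in about the same number of copies per ribosome, apart from the paired stalk proteins P1 and P2. Most of their messages begin with a cytosine followed by a run of pyrimidines at the extreme 5′ end, called a TOP motif, through which mTORC1 and LARP1 control their translation. In lymphocytes, ribosome production rises when a resting cell is activated and grows.

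The start regions of the genes that the results turn on are shown because this motif is what most ribosomal protein messages are known to share. Each line holds 15 bases before the annotated start and 15 from the start on, 5′ to 3′ on the gene's strand, from RefSeq on GRCm38.p6. Capitals mark a run of at least 5 C or T bases that opens with C and begins within 10 bases of the start.
Rplp2 (chr7:141447636-141447665, plus strand): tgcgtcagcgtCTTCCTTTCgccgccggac
Rps24 (chr14:24490663-24490692, plus strand): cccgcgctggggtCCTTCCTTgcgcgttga
Rpl28 (chr7:4792950-4792979, plus strand): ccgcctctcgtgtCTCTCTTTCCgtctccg
Rps27 (chr3:90213634-90213663, minus strand): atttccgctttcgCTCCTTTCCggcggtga
Rps6 (chr4:86857353-86857382, minus strand): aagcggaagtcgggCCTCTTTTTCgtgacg
Rpl5 (chr5:107900513-107900542, plus strand): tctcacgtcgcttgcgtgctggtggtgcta
Rpl26 (chr11:68901551-68901580, plus strand): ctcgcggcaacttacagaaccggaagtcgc
Rpl3l (chr17:24727811-24727840, plus strand): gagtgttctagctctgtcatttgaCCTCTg
A run was present in the windows of Rplp2, Rps24, Rpl28, Rps27 and Rps6 and lay across or beside the annotated start. The windows of Rpl5 and Rpl26 held none by this definition. That of Rpl3l, which is expressed mainly in muscle, held a short one further in. Rps24 and Rpl3l each have a second RefSeq start, which held no run. A run at a start other than the RefSeq one would be missed. In the GENCODE M21 annotation, for example, Rpl26 starts at base 68901583, beyond its printed window.

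Of the 87 genes, 64 matched the RefSeq start table. A pyrimidine run of this kind stood at an annotated start of 40 of these, or 62.5%, against 34.4% of all 27025 genes in the table. It was found in 25 of 41 large subunit genes and 15 of 23 small subunit genes. Among genes with a single annotated start the shares were 55.6% of the ribosomal protein genes and 30.7% of all. The letters CCGGAAGT, a core bound by ETS factors such as GABPA, were found on either strand within 250 bases before to 50 after the start in 12 ribosomal protein genes, or 18.8%, against 4.31% of all genes. The window of Rpl26 printed above holds these letters. These counts describe letters in fixed windows and were not set against expression.

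Expression was given as TPM, a transcript level per unit of exon length scaled so that it sums to 1000000 in each library. Ribosomal RNA-like features, which poly(A) selection should leave behind, took 35.1% to 56.4% of TPM in UMPS_BKO libraries and 4.99% to 54.6% in control libraries. Mitochondrially encoded features took 8.42% to 19.2% in UMPS_BKO and 5.33% to 9.12% in controls. All 16 pan-B markers were detected in every library. Their summed share was 0.0709% to 0.783% of TPM in UMPS_BKO and 0.463% to 1.22% in controls. The summed share of 12 skeletal muscle markers was 13.3% in UMPS_BKO replicate 4, in which all 12 were detected. It was 0.0278% to 0.139% in the other UMPS_BKO libraries and 0.000834% to 0.291% in controls. The 12 hepatocyte markers took 4.36% and 1.33% in control replicates 2 and 3, where all 12 were detected, and 0.00166% or less in the other 6 libraries. The 12 erythroid markers took 0.426% to 4.78% in UMPS_BKO and 0.0207% to 0.0601% in controls, without overlap. The part of these other cells' transcripts in the differences of ribosomal protein genes was not tested. Depth, recovered from the steps between low values, was 10.6 to 28.6 in UMPS_BKO and 5.81 to 18.8 in controls, in units of 1000000 reads. The deleted gene, Umps, had 5.99, 1.05, 13.6 and 2.16 TPM in UMPS_BKO replicates 1 to 4, against 16.1, 35.1, 18.6 and 8.98 TPM in control replicates 1 to 4. Its groups overlapped, and no source used here gives the exons that the deletion removes.

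As a set, the ribosomal protein genes took a smaller part of TPM in 3 of the 4 UMPS_BKO libraries than in every control library, and the groups overlapped. The summed share was 12.9%, 4.77%, 7.68% and 2.23% of TPM in UMPS_BKO replicates 1 to 4, against 8.65%, 16.0%, 17.9% and 14.9% in control replicates 1 to 4. The group means were 6.90% ± 4.59 in UMPS_BKO and 14.4% ± 4.02 in controls (SD, n = 4 each), a difference of −7.48 percentage points. UMPS_BKO replicate 1 lay above control replicate 1, which is the control library richest in ribosomal RNA-like features. In bulk samples fewer B cells and less ribosomal protein RNA per B cell cannot be told apart.

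The share depended on what the rest of the library held. Once ribosomal RNA-like and mitochondrial features were set aside, ribosomal protein genes took 24.9%, 19.5%, 20.7% and 4.67% of the remaining TPM in UMPS_BKO replicates 1 to 4. The control libraries then stood at 23.8%, 18.5%, 21.1% and 25.0%. UMPS_BKO replicates 1 to 3 thus lay within the range of the controls, and replicate 4, the library marked by muscle transcripts, lay far below. The low end of that range, 18.5% and 21.1%, came from control replicates 2 and 3, the libraries marked by hepatocyte transcripts. UMPS_BKO replicates 2 and 3 lay below control replicates 1 and 4, and UMPS_BKO replicate 1 lay between these controls. The part of hepatocyte transcripts in this was not tested. The group means were 17.5% ± 8.83 in UMPS_BKO and 22.1% ± 2.93 in controls (SD, n = 4 each). One further short feature, Gm24270, was also very abundant in some libraries, and was set aside after the data were seen. Without it as well the share was 27.1%, 22.4%, 22.6% and 4.87% in UMPS_BKO, against 27.4%, 18.6%, 21.3% and 26.4% in controls. In reads rather than TPM, ribosomal protein genes took 16.2%, 8.44%, 11.1% and 2.42% of the recovered reads in UMPS_BKO and 14.3%, 12.5%, 13.8% and 16.2% in controls.

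**Figure D1:**
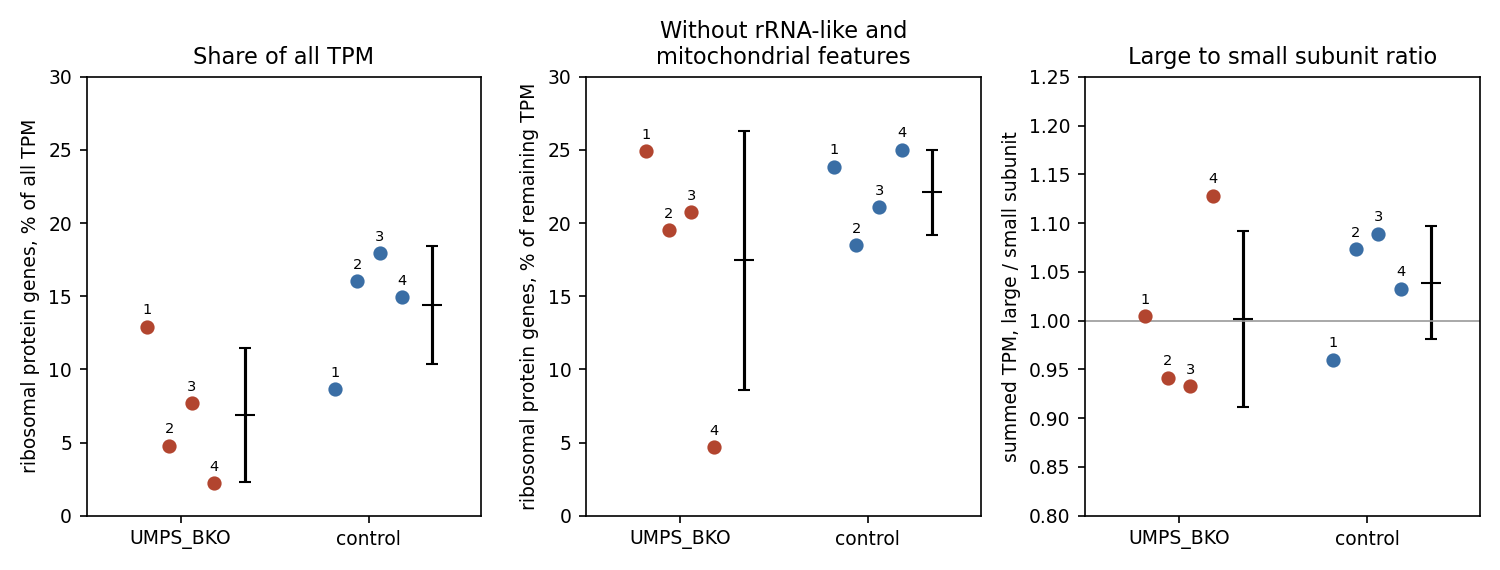
Ribosomal protein genes in each library (points, numbered by replicate) with the group mean and SD (bars, n = 4 each), as percent of all TPM, as percent of TPM without ribosomal RNA-like and mitochondrial features, and as the ratio of large to small subunit TPM. In the middle panel UMPS_BKO replicates 1 to 3 (19.5% to 24.9%) sit among the controls (18.5% to 25.0%) and replicate 4 is at 4.67%.

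The plot of shares by library shows both denominators beside each other. Medians also set UMPS_BKO replicate 4 apart, but placed UMPS_BKO replicates 1 to 3 just outside the range of the controls. The median ribosomal protein gene stood 6.97, 6.40, 6.44 and 4.68 log2 units above the median of all tested genes in UMPS_BKO replicates 1 to 4, against 6.76, 6.46, 6.53 and 6.87 in control replicates 1 to 4. UMPS_BKO replicates 2 and 3 lay just under the lowest control, replicate 1 above the highest, and replicate 4 far below all of them.

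Large and small subunit genes kept close to each other in every library. Summed TPM of the large subunit genes over that of the small subunit genes was 1.00, 0.942, 0.933 and 1.13 in UMPS_BKO replicates 1 to 4, against 0.960, 1.07, 1.09 and 1.03 in control replicates 1 to 4. The mean ratio was 1.00 ± 0.0900 in UMPS_BKO and 1.04 ± 0.0578 in controls (SD, n = 4 each), with overlapping groups. The highest and lowest of the 8 ratios were both from UMPS_BKO libraries. The highest was that of UMPS_BKO replicate 4, the library marked by muscle transcripts. Its large subunit sum of 11816 TPM included 509.5 TPM of Rpl3l, which is expressed mainly in muscle, beside 10476 TPM of small subunit genes. The large subunit sum thus exceeded the small one by more than the TPM of Rpl3l. The cause of the high ratio was not tested. The single small subunit gene was more abundant than the single large subunit gene. Median small subunit genes had 230.0 to 1566 TPM in UMPS_BKO and 888 to 2279 TPM in controls, and median large subunit genes 145 to 886 TPM in UMPS_BKO and 560 to 1373 TPM in controls.

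Gene by gene, no ribosomal protein gene passed the test. Limma on log2(TPM + 1) over 10708 tested genes, with Benjamini-Hochberg adjustment, called 0 of 84 tested ribosomal protein genes lower (background 0.0934%) and 0 higher (background 0.0374%). The smallest adjusted p among them was 0.283. Among all tested genes 10 were called lower and 4 higher (0.131% in either direction), and with libraries scaled to a median of ratios 6 lower and 4 higher. Rpl10l, Rpl39l and Rps12l1 were listed at 0 in all 8 libraries and were not tested. At an unadjusted p under 0.05, 44 of 84 were lower in UMPS_BKO, or 52.4%, against a background of 16.4%, and 0 were higher against 0.925%. Abundant genes shared much of this. With a mean TPM of at least 100, 42 of 79 ribosomal protein genes (53.2%) were lower at that p. So were 234 of 560 other genes (41.8%), and 17 of these others were higher. The others were gathered by symbol, so features of lower level that share a symbol could be among them. The log2 difference was negative for 83 of 84, against 84.3% of all tested genes. The exception was Rpl3l.

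The size of the set's difference depended on scaling and on 1 library. The median log2 difference, UMPS_BKO minus control, was −1.45 over the tested ribosomal protein genes, −1.45 for the large and −1.43 for the small subunit, beside −0.90 over all tested genes. The ribosomal protein genes thus lay 0.55 further down than the median gene, less than the pooled SD of this distance between libraries, 0.718. With median of ratios scaling the medians were −0.49 and −0.15, and with quantile normalization −0.63 and −0.02. Without UMPS_BKO replicate 4 they were −1.02 and −0.93, so that the distance was −0.09. When UMPS_BKO was represented by replicate 1 alone, which assumes that it varies like the controls, they were −0.11 and −0.23, and the ribosomal protein genes stood 0.12 above the median gene. Genes outside the set with a mean TPM of at least 100, gathered by symbol as above, had a median of −1.32 (560 tested). This was close to that of the ribosomal protein genes.

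**Figure D2:**
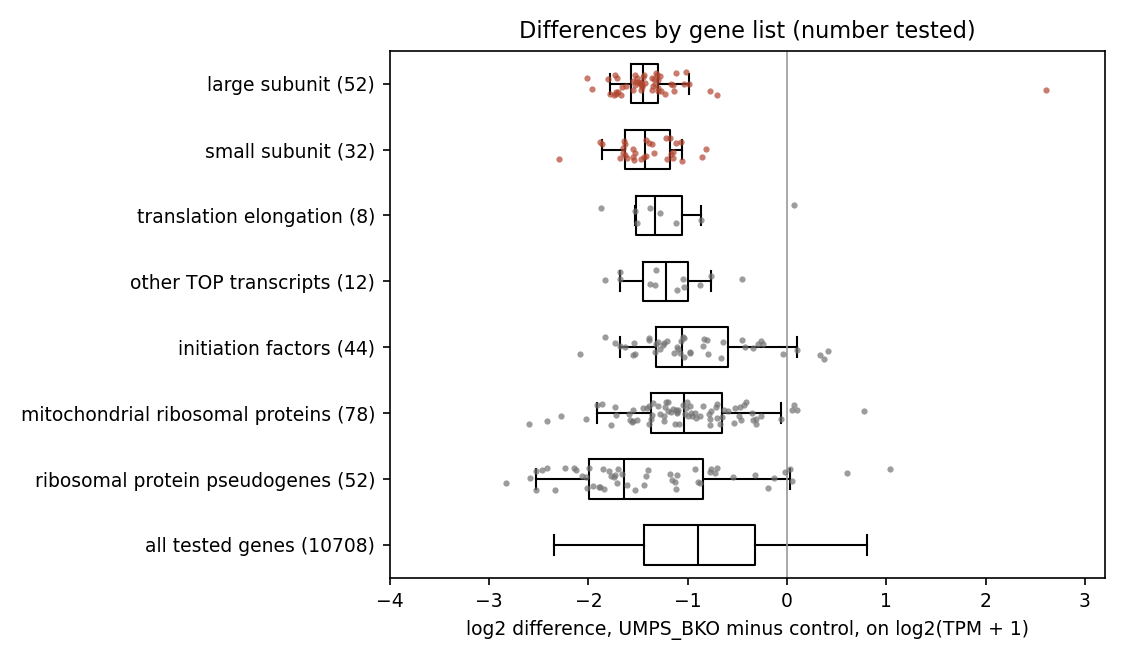
Log2 difference in TPM (UMPS_BKO minus control, limma on log2(TPM + 1)) for each tested gene (points) of each list, with boxes for the quartiles and whiskers that leave out 5% of genes at each end. Large and small subunit genes form narrow columns around −1.45 and −1.43, with Rpl3l alone at 2.61, beside a median of −0.90 over all tested genes.

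The log2 differences of the ribosomal protein genes lay close together. Their SD was 0.52 over the 84 tested, with Rpl3l among them, against 1.04 over all tested genes. Among genes with a mean TPM of at least 100 it was 0.25 over 79 ribosomal protein genes, against 1.90 over 560 others. These others were gathered by symbol, so some may lie below that level. All 79 were negative, between −2.01 and −0.71, as the plot of differences by list shows. Of the 560 others 479 were negative as well, as were 84.3% of all tested genes.

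The 4 large subunit genes with the smallest p were Rpl28, Rpl36al, Rpl5 and Rpl23a, and each had 3 of 4 UMPS_BKO libraries below all controls. Rpl28 (ENSMUSG00000030432, GRCm38 chromosome 7, 4792874 to 4795066, plus strand) had 824, 159, 372 and 144 TPM in UMPS_BKO replicates 1 to 4, against 446, 1932, 2057 and 1066 TPM in control replicates 1 to 4. UMPS_BKO replicate 1 lay above control replicate 1, so the groups overlapped. The log2 difference was −2.01 ± 0.71 (SE, n = 4 each; limma, adjusted p = 0.283).

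Rpl5, which binds 5S ribosomal RNA together with Rpl11 and, when free of the ribosome, can bind the p53 ligase Mdm2, followed the same order. Rpl5 (ENSMUSG00000058558, GRCm38 chromosome 5, 107900502 to 107909005, plus strand) had 599, 134, 154 and 89.1 TPM in UMPS_BKO, against 354, 754, 897 and 690 TPM in controls. Replicate 1 was the high library of UMPS_BKO and replicate 1 the low library of the controls. The log2 difference was −1.80 ± 0.65 (SE, n = 4 each; limma, adjusted p = 0.283). Rpl11 had 678, 218, 303 and 125 TPM in UMPS_BKO, against 357, 983, 1125 and 825 TPM in controls (log2 difference −1.46 ± 0.64; limma, adjusted p = 0.283). Mdm2 itself was read at low levels and its groups did not overlap, with 13.9, 6.14, 3.91 and 6.45 TPM in UMPS_BKO and 17.5, 18.4, 16.4 and 23.6 TPM in controls. It did not pass the test (log2 difference −1.33 ± 0.60; limma, adjusted p = 0.283), and 4.81% of all tested genes were lower without overlap. Trp53, which encodes p53, had 43.0, 6.64, 22.5 and 14.0 TPM in UMPS_BKO, against 13.7, 71.0, 108 and 51.2 TPM in controls. Rpl5, Rpl11, Mdm2 and Trp53 were listed together with Cdkn1a. Of these 5 genes 4 had a negative log2 difference, and Cdkn1a alone had a positive one, 0.68. Limma called 0 of the 5 in either direction.

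Rpl23a lies near the exit tunnel, where it contacts the signal recognition particle. It had 2119, 476, 698 and 318 TPM in UMPS_BKO, against 1232, 3094, 3270 and 2538 TPM in controls. The highest UMPS_BKO library again overlapped the lowest control (log2 difference −1.78 ± 0.67, SE, n = 4 each; limma, adjusted p = 0.283).

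Among the small subunit genes with the smallest p-values were Rps28, Rps4l and Rps27, again with 3 of 4 UMPS_BKO libraries below all controls for each. Rps28 had 685, 302, 396 and 94.1 TPM in UMPS_BKO, against 627, 1528, 1606 and 886 TPM in controls (log2 difference −1.86 ± 0.66; limma, adjusted p = 0.283). Rps27 (GRCm38 chromosome 3, 90212522 to 90213651, minus strand), a zinc finger protein, had 1621, 437, 751 and 216 TPM in UMPS_BKO, against 985, 2990, 3871 and 1880 TPM in controls (log2 difference −1.88 ± 0.71; limma, adjusted p = 0.283). Both genes were at their lowest in UMPS_BKO replicate 4 and at their highest in control replicate 3.

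Rps6, whose phosphorylation by S6 kinases is a common readout of mTORC1, had 1511, 345, 642 and 203 TPM in UMPS_BKO, against 814, 2007, 2458 and 1807 TPM in controls. The groups overlapped and the log2 difference was −1.68 ± 0.69 (SE, n = 4 each; limma, adjusted p = 0.283). Rps19, the gene most often mutated in human Diamond-Blackfan anaemia, had 693, 268, 384 and 86.3 TPM in UMPS_BKO, against 466, 658, 681 and 778 TPM in controls (log2 difference −1.18 ± 0.65; limma, adjusted p = 0.321). Rpsa, also known as the laminin receptor, had 2180, 636, 1198 and 363 TPM in UMPS_BKO, against 1235, 1975, 2295 and 2638 TPM in controls (log2 difference −1.15 ± 0.64; limma, adjusted p = 0.325). In both, UMPS_BKO replicate 1 lay within the range of the controls and the other 3 UMPS_BKO libraries below it. Rpl39, a small protein of the exit tunnel, had 137 to 910 TPM in UMPS_BKO and 613 to 1216 TPM in controls (log2 difference −1.30 ± 0.64; limma, adjusted p = 0.293).

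Calls appeared under 2 alternative fits. With array weights, which give libraries that differ from their group less weight, 37 of 84 ribosomal protein genes were called lower, or 44.0%, and 0 higher. The background of that fit was 17.8% lower and 0.784% higher (18.6% in either direction). Without UMPS_BKO replicate 1, 2 of 84 were called lower, or 2.38%, against a background of 2.16% (2.32% in either direction). These were Rpl5 (limma, adjusted p = 0.0444; 0.0324 to 1.00 across settings) and Rps4l (limma, adjusted p = 0.0465; 0.0325 to 1.00 across settings). Without that library Rps4l is listed at 0 in all 3 UMPS_BKO libraries and met the filter through the 4 controls, where it is high. UMPS_BKO replicate 1 is the library of its group with the highest pan-B marker share and the highest share of ribosomal protein genes.

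The order of abundance among ribosomal protein genes was much the same in every library. Across the 79 genes with a mean TPM of at least 100, the log2 levels of 2 libraries correlated with Pearson's r of 0.868 to 0.992 over the 16 pairs between groups and 0.857 to 0.991 over the 12 pairs within a group. The points are genes of 1 family that share annotation lengths and library preparation, so these values describe a shared profile. Rplp1, one of the stalk proteins, and Rps12 were among the 5 most abundant in all 8 libraries. Rplp1 had 8390, 4541, 5856 and 1541 TPM in UMPS_BKO, against 5899, 9497, 9964 and 9557 TPM in controls (log2 difference −0.99 ± 0.66; limma, adjusted p = 0.381). It ranked first in all libraries but UMPS_BKO replicate 3 and control replicate 1, in which Rps12 did. Rpl17 and Rpl8 followed Rplp1 in the large subunit. Rpl17 had 4832, 2163, 3572 and 645 TPM in UMPS_BKO, against 3848, 5010, 5590 and 5204 TPM in controls. Rpl8 had 3848, 1448, 2141 and 674 TPM in UMPS_BKO, against 2470, 5009, 6337 and 4433 TPM in controls. For both the first replicates of the 2 groups overlapped. The 5 most abundant ribosomal protein genes of a library held 23.5%, 34.5%, 32.0% and 24.4% of the set's TPM in UMPS_BKO, against 29.1%, 20.4%, 19.6% and 22.8% in controls. This concentration was highest in UMPS_BKO replicates 2 and 3 and in control replicate 1, the 3 libraries with the largest ribosomal RNA-like share.

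To see which genes departed from the shared profile, each level was set against the median ribosomal protein gene of the same library on the log2 scale. The SD of this relative level over the 8 libraries had a median of 0.25 over the 79 genes, and 48 of them lay under 0.3. The SD of the unadjusted log2 level had a median of 1.15. Rpl26 and Rpl6 varied least. Rpl26, which in human cells binds p53 messenger RNA, had 1126, 311, 564 and 171 TPM in UMPS_BKO, against 636, 1196, 1448 and 1301 TPM in controls. Its relative level moved only between −0.16 and 0.01 over all 8 libraries (SD 0.0557). Rpl6 had relative levels of −0.57 to −0.32 in UMPS_BKO and −0.44 to −0.33 in controls (SD 0.0873).

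The heat map of relative levels shows where colour is concentrated, and the genes at its top and bottom are described next. The stalk protein gene Rplp2 (ENSMUSG00000025508, GRCm38 chromosome 7, 141447370 to 141451585, plus strand) stood out among those with the largest spread. With Rplp0 and Rplp1 it forms the stalk that recruits elongation factors to the ribosome. Rplp2 had 1205, 990, 1257 and 274 TPM in UMPS_BKO replicates 1 to 4, against 1291, 1310, 1352 and 1282 TPM in control replicates 1 to 4. All 4 UMPS_BKO libraries lay below all controls, making it the only 1 of 84 ribosomal protein genes (1.19%) whose groups did not overlap, where the background is 4.81% lower. The margin was narrow, 1257 against 1282 TPM. Its log2 difference was −0.71 ± 0.60 (SE, n = 4 each; limma, adjusted p = 0.466), and it turned to 0.25 with median of ratios scaling and to 0.14 with quantile normalization.

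Rplp2 ranged only from 1282 to 1352 TPM in controls, where the median ribosomal protein gene ranged from 671 to 1525 TPM. Its relative level was therefore 0.07, 1.64, 1.13 and 0.68 in UMPS_BKO, against 0.94, −0.03, −0.17 and −0.01 in controls. It ranked 40, 11, 14 and 27 among ribosomal protein genes in UMPS_BKO, against 18, 43, 50 and 43 in controls. The highest relative level of each group, in UMPS_BKO replicate 2 and control replicate 1, came from its library richest in ribosomal RNA-like features, but the order of the others did not follow that share. The share was 39.7%, 56.4%, 44.5% and 35.1% of TPM in UMPS_BKO, against 54.6%, 4.99%, 9.61% and 31.5% in controls. The mitochondrially encoded share was 8.42%, 19.2%, 18.5% and 17.2% in UMPS_BKO, against 9.12%, 8.22%, 5.33% and 8.88% in controls, in the same order as the relative level within each group. The part of either share in these relative levels was not tested.

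The other stalk genes were less variable. Rplp1 had relative levels of 2.87, 3.84, 3.35 and 3.17 in UMPS_BKO, against 3.14, 2.83, 2.71 and 2.89 in controls. Rplp0 had 2677, 742, 1478 and 677 TPM in UMPS_BKO, against 1747, 3998, 4680 and 3553 TPM in controls (log2 difference −1.47 ± 0.63; limma, adjusted p = 0.283). Its relative level was 1.22 to 1.98 in UMPS_BKO and 1.38 to 1.62 in controls, highest in the muscle-marked UMPS_BKO replicate 4.

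Rps12 and Rps24, the most abundant small subunit genes, resembled Rplp2. Rps12 had 6280, 3960, 6355 and 1164 TPM in UMPS_BKO, against 6315, 6589, 6782 and 6932 TPM in controls. Its relative level was 2.45, 3.64, 3.47 and 2.76 in UMPS_BKO, against 3.23, 2.30, 2.15 and 2.42 in controls. In both groups the relative level was highest where ribosomal RNA-like features were most abundant, and the groups overlapped. Rps24, another Diamond-Blackfan anaemia gene in humans, had 5481, 3208, 4595 and 1083 TPM in UMPS_BKO, against 5070, 5047, 5525 and 5923 TPM in controls. Its relative level was 2.25, 3.34, 3.00 and 2.66 in UMPS_BKO, against 2.92, 1.92, 1.86 and 2.2 in controls. The log2 difference was −0.85 ± 0.67 for Rps12 (limma, adjusted p = 0.432) and −0.81 ± 0.64 for Rps24 (limma, adjusted p = 0.434), and with median of ratios scaling these turned to 0.10 and 0.14. Rps15, next to them in abundance in the small subunit, had 4809, 2588, 4235 and 979 TPM in UMPS_BKO, against 4002, 6531, 6252 and 5884 TPM in controls.

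Rpl28 moved the other way. Its relative level was −0.48, −0.99, −0.62 and −0.24 in UMPS_BKO, against −0.59, 0.53, 0.43 and −0.28 in controls. Only control replicates 2 and 3, the libraries with the least ribosomal RNA-like signal and with hepatocyte transcripts, were above the median ribosomal protein gene. Rpl23a was lowest, at 0.28, in UMPS_BKO replicate 3 and highest, at 1.21, in control replicate 2.

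**Figure D3:**
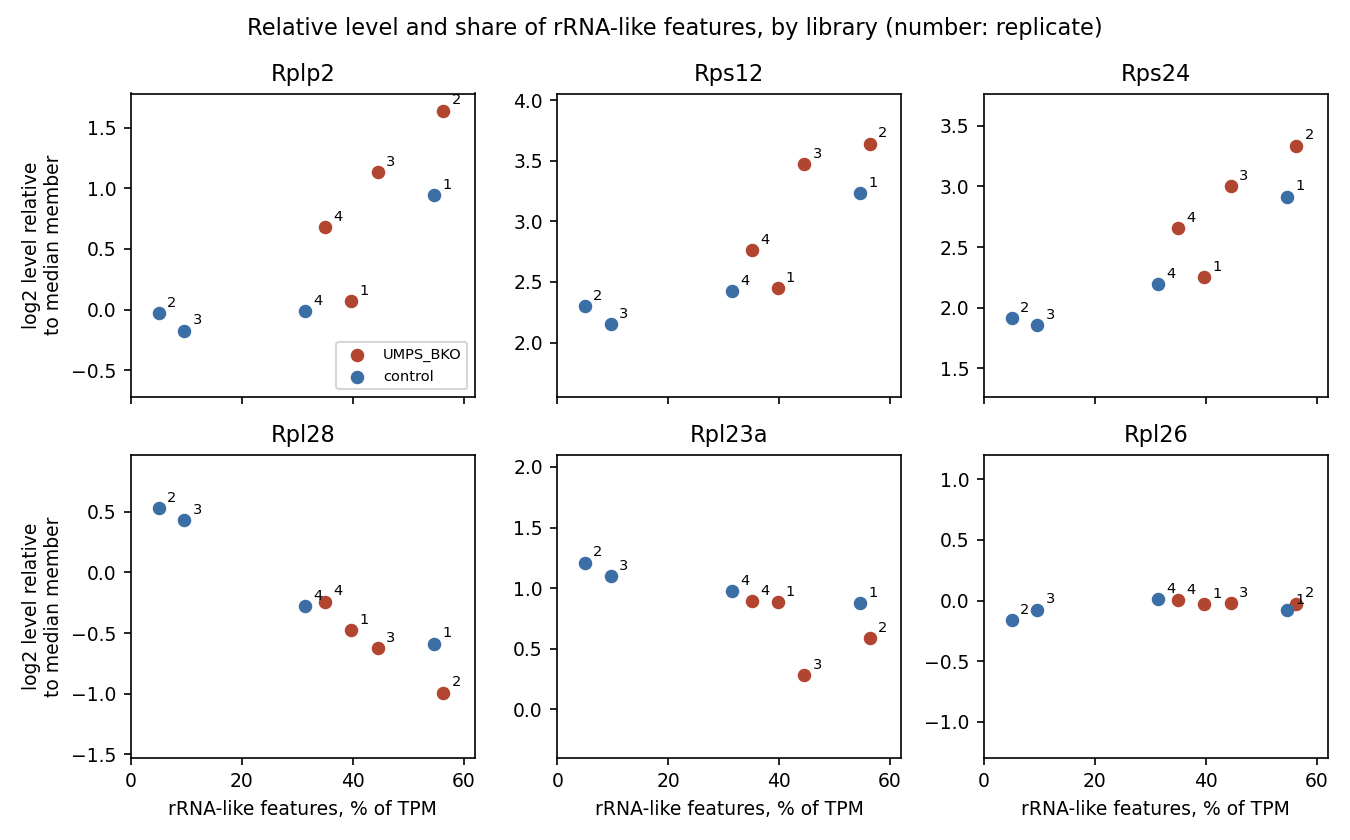
Relative log2 level of 6 ribosomal protein genes (y, against the median ribosomal protein gene of the library) by the library's ribosomal RNA-like share (x, percent of TPM); points are libraries, numbered by replicate. Rplp2, Rps12 and Rps24 are highest and Rpl28 lowest in UMPS_BKO replicate 2 (56.4% ribosomal RNA-like), and control replicate 1 (54.6%) sits nearer to it than to control replicates 2 and 3, while Rpl26 is flat.

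The plot against ribosomal RNA-like share puts control replicate 1 beside UMPS_BKO libraries rather than beside its own group for Rplp2, Rps12, Rps24 and Rpl28. Pyrimidine runs as defined above were found for all 4, as the printed windows show for Rplp2, Rps24 and Rpl28. That of Rps12 began further in, at base 9 counted from the annotated start. Such a run was found in 62.5% of the matched ribosomal protein genes, and its part in these relative levels was not tested.

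Relative to the median ribosomal protein gene, 3 of the 84 tested genes (3.57%) had all UMPS_BKO libraries below all controls, and 0 above. Set against the same median, 0.953% of all tested genes were lower and 2.34% higher without overlap. Rpl18 had relative levels of −1.20 to −0.92 in UMPS_BKO and −0.78 to −0.64 in controls. Rpl5 had −0.94, −1.23, −1.89 and −0.93 in UMPS_BKO, against −0.92, −0.83, −0.76 and −0.90 in controls. Rps27 had 0.50, 0.46, 0.39 and 0.34 in UMPS_BKO, against 0.55, 1.16, 1.34 and 0.54 in controls. The gap between the groups was under 0.1 log2 units for Rpl5 and Rps27. These 3 were picked out after their values were seen, and no test was run on relative levels.

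Several ribosomal protein genes have a copy with a related symbol, and 11 of the 87 symbols mark one. The annotation lists 4 of these 11 as pseudogenes, as given above. The muscle paralogue Rpl3l departed most from its partner. Rpl3l (GRCm38 chromosome 17, 24727820 to 24736143, plus strand) was listed at 0, 10.9, 10.1 and 509.5 TPM in UMPS_BKO replicates 1 to 4, against 13.8, 0, 0 and 2.30 TPM in control replicates 1 to 4. Rpl3, the form of most tissues, had 680, 197, 386 and 77.2 TPM in UMPS_BKO, against 385, 1011, 1459 and 836 TPM in controls. In UMPS_BKO replicate 4 Rpl3l thus stood at 660% of Rpl3, and at 5.54% or less in the other 7 libraries. The value rested on 13237 recovered reads.

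The level of Rpl3l moved with the skeletal muscle markers, which took 13.3% of TPM in UMPS_BKO replicate 4. They took 0.0278%, 0.139% and 0.0952% in UMPS_BKO replicates 1 to 3, and 0.291%, 0.000834%, 0.000844% and 0.107% in control replicates 1 to 4. Rpl3l was listed at 0 in control replicates 2 and 3, where 3 and 2 of the 12 muscle markers were detected, and also in UMPS_BKO replicate 1, where all 12 were detected. Its log2 difference of 2.61 ± 1.55 (SE, n = 4 each) did not pass (limma, adjusted p = 0.342), was 0.95 without UMPS_BKO replicate 4, and turned to −1.40 without UMPS_BKO replicates 2, 3 and 4.

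The coding sequences of Rpl3l and Rpl3 are identical at 74.4% of aligned bases, so reads can be told apart. The 60 bases that differ most, positions 163 to 222 of the Rpl3 coding sequence in GENCODE M21 transcripts, are shown with capitals at the 25 positions that differ.
Rpl3l: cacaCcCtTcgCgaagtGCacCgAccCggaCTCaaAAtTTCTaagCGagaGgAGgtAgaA
Rpl3: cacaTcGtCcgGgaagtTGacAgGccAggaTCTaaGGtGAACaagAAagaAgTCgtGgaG
The opposite case is Rpl6l, an annotated pseudogene identical to Rpl6 at 98.7% of aligned bases. Its most different 60 bases, against positions 458 to 517 of the Rpl6 coding sequence, hold 6 differences, again in capitals.
Rpl6l: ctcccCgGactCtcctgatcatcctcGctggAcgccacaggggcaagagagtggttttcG
Rpl6: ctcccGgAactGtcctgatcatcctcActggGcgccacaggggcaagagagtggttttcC
Reads of such a copy could belong to its partner, and its values are uncertain.

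Rpl6l had 9.86, 0.229, 0.424 and 0 TPM in UMPS_BKO, against 1.06, 10.4, 16.5 and 9.77 TPM in controls, which is at most 1.46% of Rpl6 in any library. Rps4l, a pseudogene identical to Rps4x at 79.8% of aligned bases, had 7.15 TPM in UMPS_BKO replicate 1 and was listed at 0 in UMPS_BKO replicates 2 to 4, against 2.84, 15.5, 8.18 and 7.15 TPM in controls. It passed the filter on low values through 1 UMPS_BKO library and all 4 control libraries. Its log2 difference was −2.30 ± 0.82 (SE, n = 4 each; limma, adjusted p = 0.283), from 127, 0, 0 and 0 recovered reads in UMPS_BKO and 34, 85, 19 and 73 in controls. Rpl32l, identical to Rpl32 at 96.0% of aligned bases, reached 1.33 TPM in UMPS_BKO and 8.60 TPM in controls and rested on at most 32 recovered reads.

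**Figure D4:**
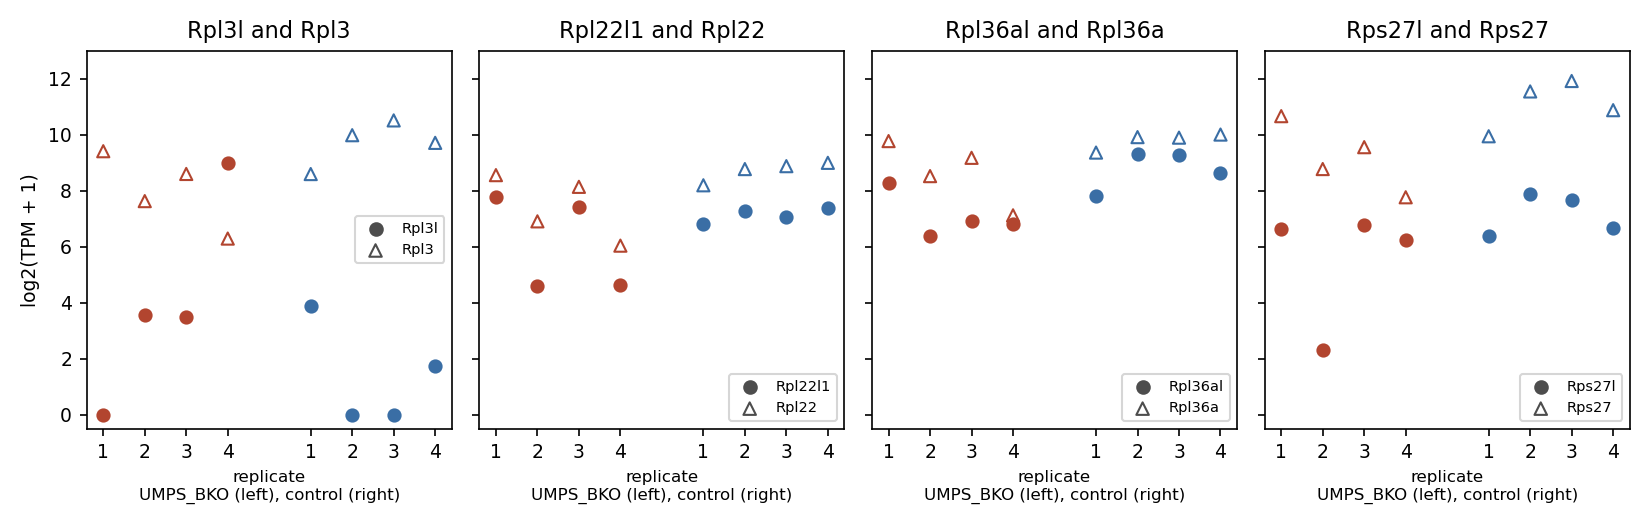
Level of 4 paralogues (filled circles) and their partners (open triangles) as log2(TPM + 1) in each library, by replicate, with UMPS_BKO left and control right. Rpl3l lies above Rpl3 in UMPS_BKO replicate 4 alone, where it had 509.5 TPM, and the other paralogues lie below their partners in all 8 libraries.

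The remaining paralogues, drawn beside their partners in the plot of paralogues, stayed below them in all 8 libraries. Rpl22l1 is held down by Rpl22 in mice, and Rpl22 itself is needed for development of T cells there. Rpl22 had 375, 119, 281 and 64.6 TPM in UMPS_BKO, against 292, 436, 469 and 509 TPM in controls (log2 difference −1.30 ± 0.62; limma, adjusted p = 0.288). Rpl22l1 had 218, 23.3, 169 and 24.0 TPM in UMPS_BKO, against 110, 152, 131 and 167 TPM in controls (log2 difference −1.02 ± 0.76; limma, adjusted p = 0.418). As a percentage of Rpl22 it stood at 58.2%, 19.6%, 60.3% and 37.1% in UMPS_BKO, against 37.9%, 35.0%, 27.9% and 32.7% in controls. The UMPS_BKO libraries lay on both sides of the controls, with replicates 1 and 3 above all of them and replicate 2 below.

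Rpl36al and Rpl36a encode nearly the same protein from different chromosomes, and their coding sequences are identical at 87.9% of aligned bases. Rpl36al had 305, 82.5, 120 and 111 TPM in UMPS_BKO, against 222, 634, 615 and 398 TPM in controls (log2 difference −1.67 ± 0.59; limma, adjusted p = 0.283). Rpl36a had 873, 366, 577 and 138 TPM in UMPS_BKO, against 657, 964, 951 and 1027 TPM in controls (log2 difference −1.15 ± 0.62; limma, adjusted p = 0.316). As a percentage of Rpl36a, Rpl36al stood at 34.9%, 22.5%, 20.7% and 80.1% in UMPS_BKO, against 33.8%, 65.8%, 64.6% and 38.8% in controls. The highest value came from the muscle-marked UMPS_BKO replicate 4 and the next from the hepatocyte-marked control replicates 2 and 3. The part of those tissues in the ratio was not tested.

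Rps27l, which p53 induces in human cells, was the most variable of all ribosomal protein genes with a mean TPM of at least 100 (relative level SD 1.39). It had 97.9, 3.99, 109 and 75.3 TPM in UMPS_BKO, against 82.3, 234, 203 and 99.7 TPM in controls (log2 difference −1.65 ± 0.91; limma, adjusted p = 0.323). As a percentage of Rps27 it stood at 6.04%, 0.913%, 14.5% and 34.8% in UMPS_BKO, against 8.36%, 7.83%, 5.24% and 5.30% in controls. Its ratio in UMPS_BKO replicates 3 and 4 lay above all controls and in replicate 2 below. Rpl7l1, known from human cells as a nucleolar relative of Rpl7, had 56.5, 33.2, 54.6 and 14.0 TPM in UMPS_BKO, against 22.4, 85.9, 92.2 and 73.5 TPM in controls. It stood at 6.29% to 10.4% of Rpl7 in UMPS_BKO and 3.60% to 9.29% in controls, and its log2 difference of −0.78 ± 0.66 (limma, adjusted p = 0.467) turned to 0.16 with median of ratios scaling and to 0.11 with quantile normalization.

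Of Rps3a1, Fau and Rack1, the ribosomal proteins with other kinds of symbol, 0 of 3 passed limma's test, 1 was lower at an unadjusted p under 0.05, and their median log2 difference was −1.26. Rps3a1 had 6863, 2411, 4028 and 926 TPM in UMPS_BKO, against 4886, 5512, 6170 and 7137 TPM in controls. Fau, which encodes a ubiquitin-like protein fused to a small subunit protein, had 3984, 2162, 2891 and 676 TPM in UMPS_BKO, against 3192, 5889, 6296 and 4684 TPM in controls. Rack1, a scaffold on the small subunit, had 578, 155, 243 and 115 TPM in UMPS_BKO, against 289, 765, 958 and 659 TPM in controls.

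Other genes of the translation machinery had no member past the test either. Of 8 elongation factor genes 0 were called in either direction by limma, 3 were lower at an unadjusted p under 0.05 (background 16.4%), and their median log2 difference was −1.33. Eef1a1, which delivers aminoacyl-tRNA, had 6537, 1254, 2497 and 525 TPM in UMPS_BKO, against 2852, 8032, 10996 and 7632 TPM in controls (log2 difference −1.87 ± 0.80; limma, adjusted p = 0.283). Eef2, which moves the ribosome along the message, had 2078, 464, 703 and 713 TPM in UMPS_BKO, against 945, 3142, 4249 and 2540 TPM in controls (log2 difference −1.51 ± 0.67; limma, adjusted p = 0.283). In both, the first UMPS_BKO library exceeded control replicate 1, and the other 3 UMPS_BKO libraries lay below all controls.

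Of 12 further genes known for TOP messages 0 were called by limma and 5 were lower at an unadjusted p under 0.05 (background 16.4%), with a median of −1.21. Eif3k, a subunit of an initiation factor complex, had 107, 26.5, 70.2 and 40.7 TPM in UMPS_BKO, against 114, 164, 257 and 188 TPM in controls. The groups did not overlap, which held for 4.81% of all tested genes in that direction, and the log2 difference was −1.68 ± 0.58 (limma, adjusted p = 0.283). Of 44 tested initiation factor genes limma called 0, with 8 (18.2%) lower at an unadjusted p under 0.05, near the background of 16.4%, and a median of −1.06. Of 78 mitochondrial ribosomal protein genes it called 0, with 5 (6.41%) lower at an unadjusted p under 0.05, below that background, and a median of −1.04. The mitochondrial gene with the smallest p was Mrpl39, with 18.3, 0, 2.88 and 2.35 TPM in UMPS_BKO, against 12.8, 40.0, 21.1 and 26.2 TPM in controls (log2 difference −2.60 ± 0.86; limma, adjusted p = 0.283). It passed without UMPS_BKO replicate 1 (limma, adjusted p = 0.0457; 0.0324 to 1.00 across settings). The order of the list medians rested on UMPS_BKO replicate 4. Without it the medians were −1.02 for cytosolic ribosomal protein genes, −1.18 for elongation factor genes and −1.28 for mitochondrial ribosomal protein genes. With UMPS_BKO replicate 1 alone they were −0.11, 0.02 and −0.31 in the same order of lists. Differences between lists were not tested.

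Of 14 genes that regulate ribosomal protein production, such as Mtor, Larp1 and the transcription factors Gabpa and Yy1, 0 were called by limma, 4 were lower at an unadjusted p under 0.05 (background 16.4%), and the median was −0.55, beside −0.90 over all tested genes. Without UMPS_BKO replicate 4 these medians were −0.84 and −0.93, and with UMPS_BKO replicate 1 alone −0.54 and −0.23, so that the regulators then lay below the median gene. Gabpa had 3.31, 0, 4.99 and 6.73 TPM in UMPS_BKO, against 8.57, 21.0, 27.7 and 16.6 TPM in controls, with no overlap, where the background is 4.81% lower (log2 difference −2.26 ± 0.77; limma, adjusted p = 0.283). Yy1 had 24.8, 10.9, 17.6 and 17.0 TPM in UMPS_BKO, against 23.1, 67.8, 75.9 and 50.1 TPM in controls (log2 difference −1.50 ± 0.58; limma, adjusted p = 0.283).

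Pseudogenes of ribosomal proteins, counted apart by the suffix -ps, had far lower levels than the set. Of 280 listed, 52 were tested and 0 called by limma, with 17 (32.7%) lower at an unadjusted p under 0.05, against a background of 16.4%, and a median log2 difference of −1.64, or −1.02 without UMPS_BKO replicate 4. They took 0.0818%, 0.0358%, 0.0588% and 0.0177% of TPM in UMPS_BKO, against 0.0610%, 0.130%, 0.142% and 0.105% in controls. The smallest p was that of Rpl22-ps1, with 0.275, 0, 0.195 and 0 TPM in UMPS_BKO, against 10.2, 9.78, 4.21 and 1.67 TPM in controls (log2 difference −2.53 ± 0.62; limma, adjusted p = 0.203). It met the filter only through the controls, since no UMPS_BKO library reached 1 TPM. Because such copies nearly match their parent genes, their reads cannot be told apart from those of the parents with certainty.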

How the data were processed

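RNA of 8 libraries was enriched for poly(A) RNA and prepared with the NEBNext Ultra II kit, per the labels' protocols. Per the submitters' processing notes, tools were bcl2fastq 2.20, STAR 2.5.2b, featureCounts and Subread 1.5.2, on genome build GRCm38. The authors deposited 1 table of TPM, whose columns each sum to 1000000 over 49315 features. The sources used here do not give the way TPM was computed, the annotation or the strand setting. Ribosomal RNA-like features are part of that sum, so that a large ribosomal RNA-like share lowers the TPM of other genes. Columns were matched to samples by the library names in the labels.

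Lengths, biotypes and gene positions came from GENCODE M21 on GRCm38 (49056 features with a length). Low values times length came in whole steps, which gave reads. Of values under 30 reads, 89.6% to 91.4% came out whole within 0.05 reads. These reads gave depth, shares of reads and the reads behind single values, and entered no test. Differences were fitted with limma 3.58.1 (R 4.3.3, eBayes with trend, two-sided, all 8 libraries, no covariate) on log2(TPM + 1), which understates changes of low genes. Genes with TPM of at least 1 in at least 4 libraries were tested, 10708 in all, and called at a Benjamini-Hochberg adjusted p under 0.05. Adjustment ran over all tested genes. On simulated data for this comparison over 10708 genes, limma called 0.167% of genes given a log2 change of 2, 76.8% of those given 4 and 96.5% of those given 6, with 0% to 6.46% of calls false. The simulated noise was independent from gene to gene, whereas genes of these libraries shifted together. These rates may therefore not hold for the real data.

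The members and lists were chosen with earlier results of these data known. Genes named in full were the 4 with the smallest p and the 3 most abundant of each subunit, the 4 most and 2 least variable in relative level, all paralogue symbols, a list of 12 known genes, and genes with the smallest p of other lists. Rpl3, Rpl18 and others outside this rule were named after their values were seen. Some genes within the rule are not reported here. Alternatives were pseudocounts of 0.1 and 5, other filters, scalings, array weights, a replicate block and left-out libraries. Python 3.11.15 with pandas 2.3.3 and Biopython 1.88 was used for alignments and summaries.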

Additional observations from a re-analysis of the deposited data

Results flagged for a closer look

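In 11 of 156 groups of 4 libraries examined, 1 library stood apart from the other 3 by Dixon's criterion for the gap to the nearest library, where chance gives about 1 in 20. That rate is a rough guide only. The groups share the same 8 libraries, and some genes were named for a small p or a large spread. UMPS_BKO replicate 4 stood apart in the skeletal muscle share, at 13.27% of TPM, and in Rpl3l, at 509.5 TPM. UMPS_BKO replicate 1 stood above the other UMPS_BKO libraries for 6 genes. It had 304.9 TPM of Rpl36al, 598.8 of Rpl5, 7.149 of Rps4l and 9.863 of Rpl6l. In the same library Eef2 had 2078 TPM and Mrpl39 18.25 TPM. Control replicate 1 stood below the other controls for Rplp1, at 5899 TPM, and for Rps21, at 1863 TPM, and above them for Rpl3l, at 13.76 TPM.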

How the results depend on the processing

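No ribosomal protein gene was called in either direction in limma with all libraries or under 20 of the 22 alternatives. The exceptions were array weights, with 37 called lower, and leaving out UMPS_BKO replicate 1, with 2. Over single libraries left out, ribosomal protein genes called lower ranged from 0 to 2, genes called lower from 1 to 231 and genes called higher from 0 to 17, against 10 and 4 with all libraries. Genes called lower were 1906 with array weights, 6 with a mean TPM of at least 5, after the median of ratios or without ribosomal RNA-like and mitochondrial features, 5 with a pseudocount of 5, after quantile normalization or without Gm24270 as well, 2 when centred on ribosomal protein genes, and 1 with no filter or without control replicate 2 and UMPS_BKO replicate 4. Without UMPS_BKO replicates 2, 3 and 4 both counts were 0. Genes called higher were 84 with array weights, 1 with a pseudocount of 0.1 or without ribosomal RNA-like and mitochondrial features (with or without Gm24270), and 0 with no filter. With the replicate block 23 genes were called lower, 5 higher and 0 of the ribosomal protein genes. Same-numbered libraries correlated at −0.347, −0.190, −0.0285 and −0.0897. Whether same-numbered libraries were handled together was not tested.

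The distance of ribosomal protein genes from the median gene was −0.77 to −0.09 over single libraries left out, and −0.09 was the value without UMPS_BKO replicate 4. It was −0.98 with no filter, −0.88 with a pseudocount of 5 and −0.24 with one of 0.1. The member share of TPM, as UMPS_BKO minus control, was −1.46 percentage points without UMPS_BKO replicates 2, 3 and 4, and −9.49 to −5.93 over single libraries left out.

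Signs turned in 34 cases. Centring on ribosomal protein genes accounts for 18, since it moves every gene's difference up by the same amount by construction, and the cause of the other 16 was not tested. After the median of ratios these were Rps12 (0.10), Rps24 (0.14), Rplp2 (0.25) and Rpl7l1 (0.16), and after quantile normalization Rplp2 (0.14) and Rpl7l1 (0.11). Without Gm24270 and the other features set aside, Rplp2 was at 0.0536. That centring turned Rplp1 (0.42), Rpl17 (0.27), Rpl8 (0.0471), Rps12 (0.55), Rps24 (0.59), Rps15 (0.35), Rpl22l1 (0.39), Rplp2 (0.70), Rpl26 (0.0573), Rpl7l1 (0.63), Rpsa (0.25), Rpl22 (0.10), Rpl36a (0.26), Rpl39 (0.10), Rps19 (0.23), Rps3a1 (0.34), Fau (0.15) and Mdm2 (0.0795). Leaving out UMPS_BKO replicates 2, 3 and 4 turned Rps24 (0.0271), Rpl22l1 (0.65), Rpl3l (−1.40), Rpl26 (0.0418), Rpl6 (0.0530), Rpl6l (0.41), Rpsa (0.15), Rps19 (0.13) and Rps3a1 (0.23).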

Other observations

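Further genes of the set, chosen after their values were seen, show how far 1 library could depart. Rps2 had a relative level of 0.59, 0.52, 0.35 and 1.98 in UMPS_BKO replicates 1 to 4, against 0.23, 0.80, 0.89 and 0.71 in control replicates 1 to 4. Only UMPS_BKO replicate 4 was far from the others. Rpl4 had a relative level of 0.69, −0.36, 0.64 and 1.36 in UMPS_BKO, against 0.63, 0.68, 0.76 and 0.78 in controls, with UMPS_BKO replicate 2 low and replicate 4 high. In UMPS_BKO replicate 2 Rpl15 had 30.5 TPM, the lowest of its 8 values, against 155 to 448 TPM in controls.

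Across the 79 genes with a mean TPM of at least 100, genes with shorter annotated exon length had higher TPM in each library (Spearman's rho −0.387 to −0.483 in UMPS_BKO and −0.396 to −0.507 in controls, across genes, which are not independent replicates). Their exon lengths run from 383 to 6270 bases. TPM divides by this length, which also counts exons that the B cells may not use.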
